A study of Drosophila melanogaster with 12 samples.

Results

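The genes vvl, knrl, uif, verm and Gasp, known for their part in the tracheal system of the fly, were followed through cells sorted by DNA content. They were taken by gene symbol, from probe sets whose platform annotation names 1 of them and no other gene. This gave 5 genes of 11981 with a probe set of their own, and 7 probe sets of 18769. RNA levels came from Affymetrix arrays for Drosophila, 12 in all, in 4 groups of 3 arrays each. Wing discs came from OreR larvae, a wild-type strain, at the wandering stage of the third instar, reared at 25 °C, and S2 cells, a line derived from fly embryos, had fewer than 30 passages. In both, the G1 fraction was gated at the 2C peak of DNA content and the G2 fraction at the 4C peak, which also takes in mitotic cells, and no group carries an allele or agent in its label. Separate dissections or cultures for the arrays of a group are not named in the labels, and each p-value then covers only the spread among these samples, which may be technical.

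The tracheae are the branched epithelial tubes that carry air through the body of the fly. Regulators such as the POU-domain factor vvl and the knirps-family factors decide which cells migrate and which branch they form, fibroblast growth factor signalling guides the branches, and the finished tube is lined with chitin that secreted proteins shape. A wing disc carries a tracheal branch with the air sac primordium on its surface. Several of these genes also act outside the trachea: vvl and the knirps pair have roles in wing vein formation, and chitin enzymes serve cuticle-forming epithelia in general. The array reads RNA of all sorted cells together, so a change in the number of cells of a type and a change in RNA per cell cannot be told apart.

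Levels are log2 intensities. Array medians lay between 4.18 and 4.37, and a level of 5, which served as the filter, was reached by 40.4% to 42.0% of probe sets per array. Of the 7 probe sets, 6 reached 5 on at least 3 arrays and were tested. The table gives no detection calls, so values under 5 are described as near background and differences against them are limited in size. The tracheal label could be checked only in part. btl, the fibroblast growth factor receptor of tracheal cells, lay between 3.89 and 4.52 on the disc arrays and between 3.84 and 4.20 on the S2 arrays, so its probe set was near background in all 4 groups. dysf, a factor of tracheal fusion cells, lay between 4.20 and 4.61 throughout, and trh, stumps and pnt were not analysed here. The 5 genes are therefore called by their names here, and their levels do not show that tracheal cells were present in the sort.

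In the wing disc, vvl, uif and verm were higher in G2 than in G1, by 1.61-fold to 1.89-fold, and knrl and Gasp had higher means in G2 without passing the test. The comparison asks which transcripts differ between the 2C and 4C fractions of a growing epithelium. Of the 5 genes, 3 passed at an adjusted p under 0.05 in the limma fit, against 5.20% of all 8580 tested probe sets called higher in G2. The same 3 genes had every G2 array above every G1 array, as did 21.2% of all tested probe sets. Since the genes were proposed with earlier results of these data known, these counts describe them and support nothing beyond that.

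**Figure D1:**
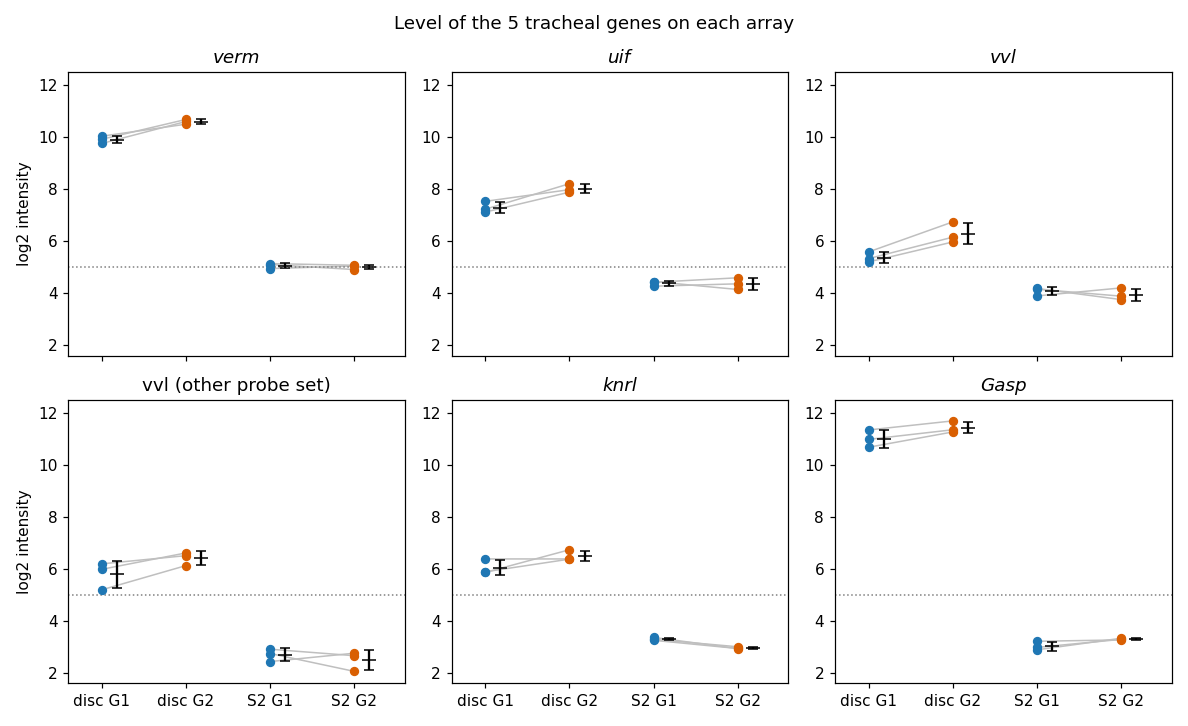
The log2 intensity of each probe set (vertical axis) is plotted for the 4 groups, with 1 point per array, grey lines joining G1 and G2 arrays of the same number, the mean ± SD in black and a dotted line at 5. For verm, uif and vvl the 3 disc G2 points lie above all disc G1 points, and S2 points lie near or under 5 in every panel.

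vvl (CG10037) encodes a POU-domain transcription factor needed for the migration of tracheal cells. It has 2 probe sets here. On the one with the higher mean over all 12 arrays, disc G1 read 5.58, 5.20 and 5.32 on arrays 2, 3 and 4, and disc G2 read 6.73, 5.96 and 6.15. All G2 arrays were above all G1 arrays, and array 2 was the highest of both fractions. The mean went from 5.37 ± 0.20 to 6.28 ± 0.40 (SD, n = 3), a rise of 0.91 ± 0.19 (SE), or 1.89-fold (95% interval 1.41 to 2.52, adjusted p = 0.0093). Of all 8580 probe sets, 88 had a larger value of G2 minus G1.

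The other vvl probe set read 5.99, 6.19 and 5.20 in disc G1 and 6.61, 6.51 and 6.13 in disc G2. Its fractions overlapped, because G1 array 3 stood above G2 array 4. Its mean went from 5.79 ± 0.53 to 6.42 ± 0.26, a difference of 0.62 ± 0.26 that did not pass (adjusted p = 0.159, or 0.0541 with replicate number as a block). The choice between them matters: over the 6 disc arrays alone the second of these has the higher mean, 6.11 against 5.82. Both pointed the same way, and G2 was higher in 3 of 3 same-numbered pairs on each.

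knrl (CG4761) encodes a zinc finger protein of the nuclear receptor family that acts with its relative kni in tracheal branches and in the wing. Disc G1 read 5.86, 6.38 and 5.89 on arrays 2, 3 and 4, and disc G2 read 6.73, 6.38 and 6.38. G1 array 3 stood level with G2 arrays 3 and 4, so the fractions met. The mean was 6.05 ± 0.29 in G1 and 6.50 ± 0.21 in G2, a difference of 0.45 ± 0.14 or 1.37-fold (95% interval 1.11 to 1.69, adjusted p = 0.062). By pair the difference was 0.87 on array number 2, -0.0002 on number 3 and 0.49 on number 4. Without G1 array 3 it passed (0.62, adjusted p = 0.0068). kni, its relative on the same stretch of chromosome arm 3L, had means of 7.64 ± 0.20 in the G1 and 7.66 ± 0.15 in the G2 fraction (0.01 ± 0.13, adjusted p = 0.962), and the difference between the changes of both genes was not tested.

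uif (CG9138) encodes uninflatable, a transmembrane protein with epidermal growth factor repeats on the apical side of tracheal and other epithelial cells, without which larval tracheae do not fill with gas. Disc G1 read 7.22, 7.52 and 7.11 on arrays 2, 3 and 4, and disc G2 read 8.20, 7.97 and 7.88. All G2 arrays lay above all G1 arrays. The mean rose from 7.29 ± 0.21 to 8.02 ± 0.17, by 0.73 ± 0.14 or 1.66-fold (95% interval 1.34 to 2.05, adjusted p = 0.0053), and 154 probe sets had a larger value. The pairs differed by 0.98, 0.45 and 0.77, all higher in G2. The other uif probe set lay between 2.60 and 3.23 on all 12 arrays, did not pass the filter and gives no view of the gene here.

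verm (CG8756) encodes vermiform, a secreted chitin deacetylase of the tracheal lumen that limits tube length. Disc G1 read 9.91, 10.03 and 9.75 on arrays 2, 3 and 4, and disc G2 read 10.67, 10.49 and 10.59. The fractions were apart, with the smallest spread of the 5 genes within the disc groups. The mean rose from 9.90 ± 0.14 to 10.59 ± 0.09, by 0.69 ± 0.10 or 1.61-fold (95% interval 1.39 to 1.87, adjusted p = 0.00066), with 184 probe sets above it. Pairs differed by 0.76, 0.46 and 0.84. serp, a chitin deacetylase whose gene lies next to verm in the RefSeq gene table, had a mean of 10.10 ± 0.17 in the G1 and 10.44 ± 0.04 in the G2 fraction, a difference of 0.34 ± 0.22 (adjusted p = 0.364). Every G2 array of serp was above every G1 array, and whether its change differs from that of verm was not tested.

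Gasp (CG10287) encodes a secreted chitin-binding protein of the obstructor family that is laid down in the tracheal lumen. Disc G1 read 10.98, 11.34 and 10.67 on arrays 2, 3 and 4, and disc G2 read 11.35, 11.69 and 11.26. G1 array 3 lay above G2 array 4, so the fractions overlapped by a small margin. The mean was 11.00 ± 0.33 in G1 and 11.43 ± 0.22 in G2, a difference of 0.44 ± 0.16 or 1.35-fold (95% interval 1.06 to 1.73, adjusted p = 0.119). Within pairs the differences were close to each other, at 0.37, 0.35 and 0.59. With replicate number as a block Gasp passed (adjusted p = 0.0176), which made 4 of the 5 genes higher in G2, against 11.5% of all probe sets called higher in that fit. It also passed without disc G1 array 3 (0.61, adjusted p = 0.0294).

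Disc G1 array 3 was the highest G1 array for verm, uif, knrl, Gasp and the other vvl probe set, and array 4 was the lowest of the 3 for verm, uif, Gasp and that vvl probe set. In uif, knrl, Gasp and the other vvl probe set, the fractions overlapped or came nearest at G1 array 3 against G2 array 4.

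In S2 cells the same phase comparison called 0 of the 5 genes in the limma fit, against 9.65% of all tested probe sets in either direction. At an unadjusted p under 0.05 the count was 1 (knrl), against 24.0% of all probe sets, and with the replicate block it was 0, against 18.4%. All S2 values of uif, vvl, knrl and Gasp were under 5. verm read 5.10, 5.13 and 4.94 in S2 G1 on arrays 4, 5 and 6, and 4.90, 5.07 and 5.04 in S2 G2, so its fractions overlapped at the filter level. In S2, uif read 4.44, 4.26 and 4.41 in G1 and 4.14, 4.36 and 4.59 in G2, and the difference of -0.01 ± 0.14 has a 95% interval of -0.32 to 0.29. vvl read 4.18, 3.89 and 4.15 in S2 G1 and 3.75, 4.20 and 3.88 in S2 G2, again with overlap. The verm difference was -0.05 ± 0.10 (-0.26 to 0.16) and that of vvl was -0.13 ± 0.19 (-0.55 to 0.29). For knrl, S2 G1 read 3.26, 3.37 and 3.29 and S2 G2 read 2.94, 2.94 and 3.01. Its means were 3.31 ± 0.06 and 2.96 ± 0.04 (-0.34 ± 0.14, adjusted p = 0.152), far under the filter level. Gasp read 2.89, 3.22 and 2.98 in S2 G1 and 3.33, 3.27 and 3.29 in S2 G2, at the same low level (0.27 ± 0.16, adjusted p = 0.351). At such levels an S2 phase change may not be detectable.

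The disc change minus the S2 change asks whether the phase difference itself differs between the cell types. It passed for verm, vvl and knrl, 3 of the 5 genes, against 2.21% of all probe sets called in that direction. vvl and knrl were near background on all 6 S2 arrays, where a phase change may not be measurable, so for them the value sets the disc change against background and does not show that the phase change differs between the cell types. verm differed by 0.74 ± 0.14 (adjusted p = 0.0096), and this held without any 1 of the 12 arrays. Its S2 values lay at the filter level, between 4.90 and 5.13, so an S2 phase change of verm may not be measurable either. The verm value too does not show that the phase change differs between the cell types. vvl differed by 1.04 ± 0.27 (adjusted p = 0.0479), but its other probe set did not pass (0.83 ± 0.37, adjusted p = 0.257). knrl differed by 0.80 ± 0.20 (adjusted p = 0.0404), made of the disc difference of 0.45 minus the S2 difference of -0.34 at background levels, and with 16 added to every intensity before taking log2 it fell to 0.49 (adjusted p = 0.104). uif fell just short (0.74 ± 0.20, adjusted p = 0.0528, or 0.038 with the replicate block), and Gasp differed by 0.17 ± 0.23 (adjusted p = 0.78). Both were also under 5 on all 6 S2 arrays. The calls of vvl and knrl were each lost without 10 of the 12 arrays in turn.

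**Figure D2:**
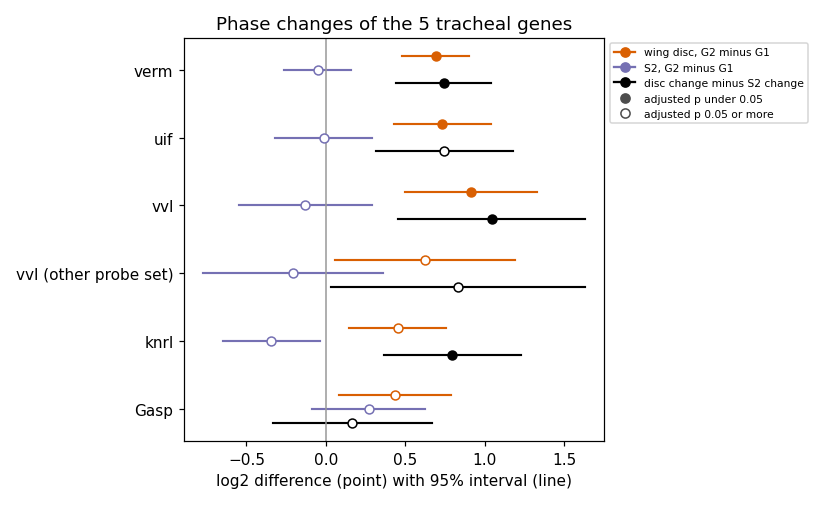
Points give the log2 difference and lines its 95% interval for G2 minus G1 in the disc, G2 minus G1 in S2, and the disc change minus the S2 change, with filled points where the adjusted p is under 0.05. Disc values are above 0 for all 5 genes, from 0.44 for Gasp to 0.91 for vvl, and S2 values lie between -0.34 and 0.27.

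In each of the 5 genes the order of group means was disc G2, then disc G1, then both S2 groups. Of all 8580 tested probe sets, 3264 were called higher in disc than in S2 within G1 and 3108 within G2 (adjusted p under 0.05). Disc G1 and G2 did not separate for knrl and Gasp, and the S2 fractions did not differ beyond the test for any of the 5 genes. The gap was largest for Gasp, at 7.97 ± 0.16 between disc and S2 within G1 and 8.13 ± 0.16 within G2. For verm it was 4.84 ± 0.10 and 5.58 ± 0.10, for uif 2.91 ± 0.14 and 3.66 ± 0.14, and for knrl 2.74 ± 0.14 and 3.53 ± 0.14. For vvl it was 1.29 ± 0.19 and 2.34 ± 0.19, or 3.09 ± 0.26 and 3.92 ± 0.26 on the other probe set. These are differences of the same probe set between groups, given as a description, and S2 values near background limit the size of the gaps. uif, vvl, knrl and Gasp passed the filter through their disc arrays alone, while verm reached 5 on 2 of 3 arrays in each S2 group. For uif, vvl, knrl and Gasp a disc level above S2 was thus in part set by the filter, and it is no finding about them.

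Among the other genes of the tracheal lists, most disc differences were above 0 and few passed the test. The lists hold 42 names, of which 37 had a probe set of their own and 31 passed the filter. Of these 31 genes, 6 rose, 0 fell and 25 stayed short of the threshold, where 5.20% of all tested probe sets were higher and 5.31% lower. Their median was 0.34, against a median of 0.05 over all tested probe sets. With the replicate block 12 were higher and 1 was lower, where 11.5% of all probe sets were higher and 7.45% lower. Without vvl, knrl, uif, verm and Gasp, 3 of 26 rose and the median was 0.28, with 24 values above 0. The share of all tested probe sets above 0 was not counted. A list of disc epithelium genes, described below, also had a median of 0.28, with 17 of 20 values above 0, so this direction is not particular to tracheal genes. In S2, limma called 0 of the 31, against 9.65% of all probe sets, with a median of 0.03. Of the 37 matched genes, only 13 had a mean of at least 5 over the S2 arrays. For the others an S2 phase change may not be measurable, so the count of 0 does not show that it is absent. The block called 2 higher (bnl and sinu) and 1 lower (bowl), against 18.4% of all probe sets in either direction.

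Few regulators passed. Of 12 tested fate and branching genes, vvl rose and 11 did not pass, against 5.20% of all tested probe sets called higher. The median was 0.19. grh, the Grainy head factor of barrier epithelia, differed by 0.64 ± 0.19 (adjusted p = 0.053, or 0.0316 with the block), and salm, a zinc finger factor of tracheal and wing patterning, by 0.42 ± 0.14 (adjusted p = 0.09, or 0.0484 with the block). bnl, the ligand of the tracheal growth factor receptor, was near background in the disc (3.81 and 4.56) and at 7.09 ± 0.76 in S2 G1 and 7.89 ± 0.33 in S2 G2. Its disc difference of 0.75 ± 0.30 did not pass without the replicate block (adjusted p = 0.147, or 0.0413 with it). tgo, Egfr, bs, sty, bowl and esg had differences between -0.01 and 0.23.

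Genes of the tube wall and lumen gave most of the calls. Of 19 tested, 5 rose and 0 fell, against 5.20% of all tested probe sets called higher and 5.31% lower. The median was 0.35. Beside uif and verm these were knk, which organises chitin at the cell surface (9.71 ± 0.06 to 10.15 ± 0.18, a rise of 0.43 ± 0.11, adjusted p = 0.032), the chitin-binding obst-A (11.74 ± 0.07 to 12.15 ± 0.08, 0.40 ± 0.11, adjusted p = 0.0345) and btsz, a synaptotagmin-like protein of the apical membrane (5.93 ± 0.28 to 6.50 ± 0.12, 0.57 ± 0.15, adjusted p = 0.0373). In each of these 3 genes G2 was higher in 3 of 3 pairs, which adds no support because they were named for passing on the same arrays. kkv, the chitin synthase, differed by 0.29 ± 0.14 (adjusted p = 0.235). The apical determinant crb, with a difference of 0.45, and the septate junction genes sinu, kune, Nrx-IV, Cont and pck, between 0.06 and 0.36, did not pass either, though Cont, the gene for contactin, passed with the block (0.36 ± 0.14, adjusted p = 0.126, or 0.0275 with it). pio, a luminal protein of the tube, differed by 0.49 ± 0.22 (adjusted p = 0.187, or 0.0284 with the block). cv-c was lower by 0.35 in G2 (adjusted p = 0.0647, or 0.0247 with the block). The count of 6 over both lists was 3 without disc G1 array 4 and also without disc G2 array 2.

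**Figure D3:**
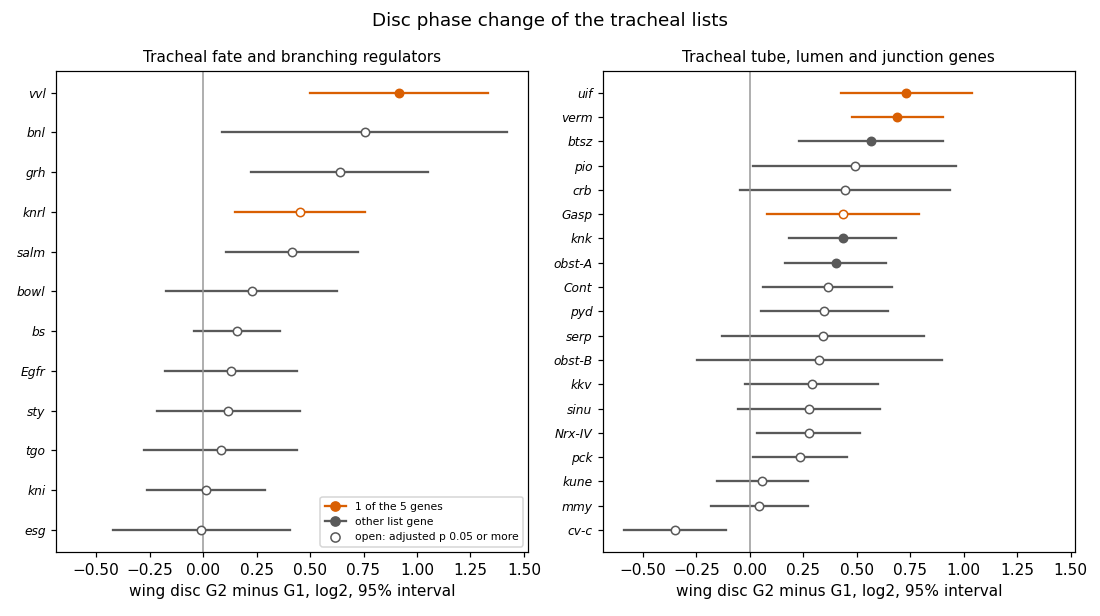
Each tested gene of the regulator list (left) and of the tube, lumen and junction list (right) is drawn with its disc G2 minus G1 difference in log2 and its 95% interval, filled where the adjusted p is under 0.05 and orange for vvl, knrl, uif, verm and Gasp. Most points lie between 0 and 0.75, esg and cv-c lie under 0, and 6 genes are filled.

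A list of chitin and cuticle genes, which shares 8 matched genes with the tube list, gave 4 rises and 0 falls among 14 tested genes. Over all tested probe sets 5.20% were called higher and 5.31% lower. The median of the list was 0.31. Beside verm, knk and obst-A the chitinase gene Cht10 rose, from 10.43 ± 0.04 to 11.10 ± 0.24 (0.67 ± 0.12, adjusted p = 0.003). Cda4, a further chitin deacetylase gene, differed by 0.09 ± 0.14, and the chitinase gene Cht2 by -0.02 ± 0.11. In S2, Cht2 fell from 6.38 to 5.52 (-0.86 ± 0.11, adjusted p = 0.00093). The count of 4 was 2 without disc G1 array 2, disc G1 array 4 or disc G2 array 2.

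Markers of other disc cells moved between the same fractions. The counts below stand against 5.20% of all tested probe sets called higher in disc G2 and 5.31% called lower. Of 6 tested genes of the adult muscle precursors, 5 fell and 0 rose in disc G2, and the median was -1.37. The 8 matched genes summed to an intensity of 8045 to 10543 on the disc G1 arrays and 2432 to 5124 on the disc G2 arrays. This sum leans on Him, the brightest of them, at 12.68 ± 0.21 in G1 and 11.45 ± 0.78 in G2. kirre went the other way, with means of 6.92 in G1 and 7.40 in G2. twi, the defining factor of these cells, read 10.57 ± 0.26 in G1 and 9.25 ± 0.35 in G2. Among 16 tested genes of haemocytes, 4 fell, 0 rose and the median was -0.46. The differences were uneven. Means went from 9.48 to 7.87 for vkg, 9.61 to 7.98 for Col4a1 and 7.36 to 6.38 for He. They went only from 5.85 to 5.36 for Hml, 6.39 to 5.80 for Pxn and 7.28 to 7.14 for crq. The list therefore does not show a shift shared by all haemocyte markers. The 17 matched genes summed to 8700 to 10595 in G1 and 4492 to 4821 in G2. This sum leans on SPARC, the brightest of them in disc G1 (mean 12.32 in G1 and 10.73 in G2). Of the 16 differences 13 were below 0 and 3 above. Those above were srp, NimC1 (4.93 in G1 and 5.21 in G2) and Sr-CI (4.88 and 5.06), all near or under the filter level. srp, a defining haemocyte factor, was near background on all disc arrays (2.64 to 3.25). Of 20 genes of the disc epithelium 6 rose and 2 fell, with a median of 0.28, and their sum went from between 8984 and 10107 to between 10973 and 11646. Of 5 tested genes of neurons and glia 1 rose and 1 fell, with a median of 0.09. The part of these markers in the changes of vvl, uif and verm was not tested.

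**Figure D4:**
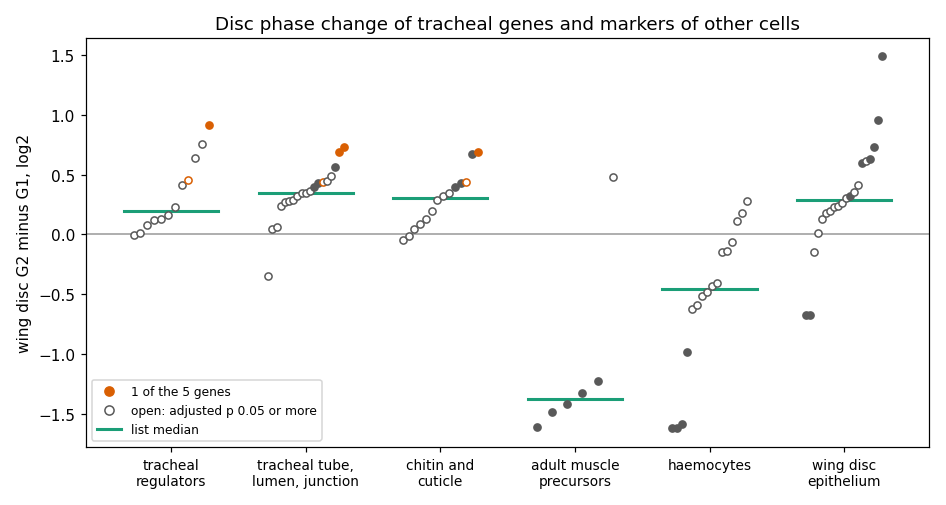
Disc G2 minus G1 differences in log2 (vertical axis) are shown for every tested gene of 6 lists, with filled points where the adjusted p is under 0.05, orange for vvl, knrl, uif, verm and Gasp, and a green line at each list median. The medians of the tracheal, chitin and disc epithelium lists lie between 0.19 and 0.35, and those of muscle precursors and haemocytes at -1.37 and -0.46.

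The genes with the most similar pattern over the 12 arrays were taken by Pearson's r of log2 values among 6936 other genes. These r values mostly follow the gap between disc and S2 and all come from the same 12 arrays, and they carry no p. For verm the nearest were emp, a scavenger receptor of the CD36 family (r = 0.9993), the Golgi kinase gene fj (0.9988) and Cht10 (0.9987), and 1170 genes had an r of at least 0.95. For uif they were slow (0.9979), CG13024 (0.9977) and Idgf4, a chitinase-like growth factor (0.9973). For vvl they were CG43366 (0.9877), E(spl)m4-BFM of the Bearded family (0.9866) and CG14439 (0.9843), and 150 genes reached 0.95. For knrl they were the homeobox gene dve (0.9965), Ance (0.9964) and snu (0.9958). For Gasp they were the cadherin gene ds (0.9993), CG12581 (0.9992) and CG12547 (0.9991).

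Over the 6 disc arrays alone, r between each gene and its 3 nearest ran from 0.93 to 0.96 for verm, 0.94 to 0.99 for uif, 0.97 to 0.99 for vvl, 0.90 to 0.93 for knrl and 0.87 to 0.98 for Gasp. The disc differences of the neighbours of verm, uif, vvl and knrl ran from 0.43 ± 0.12 for snu to 1.70 ± 0.31 for E(spl)m4-BFM, and those of Gasp were 0.26 for ds, 0.39 for CG12581 and 0.21 for CG12547. The neighbours were chosen on the same arrays, so a like disc difference is part of the choice and no finding.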

How the data were processed

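The authors deposited 1 linear intensity per probe set and array, and per the submitters' processing notes they used RMA and R 2.15.2. Settings of RMA were not stated in the sources used here. RNA was amplified from 100 ng and labelled with biotin, per the labels' protocols. The table held 18952 probe sets, and 183 controls were left out. Genes come from the platform annotation (13646 probe sets with 1 gene, 402 with several, 4721 with none listed). Current symbols of 13543 of them were looked up in RefSeq and 0 had changed.

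Intensities were log2 transformed, and probe sets of at least 5 on at least 3 arrays were kept (8580). All 12 arrays entered a single group-means model in limma 3.58.1 under R 4.3.3 (8 residual and 3.52 prior degrees of freedom). Tests are two-sided, with Benjamini-Hochberg adjustment over all 8580 probe sets. The code was tested on simulated data. Tables and plots used Python 3.11.15, pandas 2.3.3, numpy 2.4.6 and matplotlib 3.10.9. Arrays give no counts, and their number limits the precision.

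The genes and lists were chosen with earlier results of these data known. Named were the 5 genes, tracheal list genes that passed in the disc, and the 3 genes most like each in pattern. Other genes of the lists were named after their values were seen. Of several probe sets for a gene, the one with the highest mean over the 12 arrays was used. Of 122 list names 106 were matched to a probe set. No sequence was used, and the RefSeq gene table (Release 6) served only for names and for which genes lie near each other.

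Same-numbered G1 and G2 arrays deviated from their group means together (r of 0.31 to 0.52 in 6 of 6 pairs). The 12 pairs with different numbers gave -0.50 to 0.01, which is partly forced because deviations within a group cancel out. The numbers may thus pair the samples. The main fit leaves this out, so a fit with the replicate block was also run. Other alternatives were 2 scalings, 2 filters, 16 added before log2, array weights, trended robust eBayes, a fit on only the arrays compared, and each array left out in turn.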

Additional observations from a re-analysis of the deposited data

Results flagged for a closer look

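For verm, vvl and knrl the disc change minus the S2 change passed its test, with the disc higher by 0.742 for verm (adjusted p = 0.0096), 1.04 for vvl (adjusted p = 0.0479) and 0.795 for knrl (adjusted p = 0.0404) on the log2 scale. In S2 vvl and knrl were under 5 on all 6 arrays and verm between 4.90 and 5.13. At these levels an S2 change may not be measurable for verm, vvl or knrl. Their values therefore do not show that the phase change differs between the cell types.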

How the results depend on the processing

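In the disc, verm and uif kept their call and direction under all 21 alternatives run, and vvl under 20 of 21 (not on its other probe set, adjusted p = 0.1593). Its main probe set did not reach the filter at 6, which gives no value. knrl passed with array weights (0.0181) and Gasp with the replicate block (0.0176). With 1 array left out their adjusted p ran from 0.0068 to 0.2086 and from 0.0294 to 0.3577. The block changed no other call of these 5 disc differences, and in S2 no setting called any of them. It gives no disc against S2 value, because replicate numbers lie within a cell type.

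For the disc change minus the S2 change, vvl was 0.0508 after subtraction of array medians, 0.0567 with no filter and 0.2569 on its other probe set. knrl was 0.0615 after median subtraction, 0.0647 after cyclic loess, 0.0554 with no filter, 0.1041 with 16 added and 0.0529 with trended robust eBayes. uif passed after cyclic loess (0.0498), with the filter at 6 (0.04996), with 16 added (0.0242), with array weights (0.0182) and with the block (0.038). All S2 values of uif were under 5, so these calls too set its disc change against background. With 1 array left out, the adjusted p ran from 0.0264 to 0.1069 for vvl, 0.0068 to 0.0932 for knrl and 0.0304 to 0.1237 for uif. The cause was not tested.

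Counts of called probe sets moved more. In the disc the count of 902 became 2043 with array weights, 1626 with the block, and 601 to 1152 with 1 array left out (601 without disc G1 array 4). In S2, 828 became 1645, 1577 and 493 to 1088, and 413 on S2 arrays alone. For the difference of changes, 438 became 1151, 949 and 281 to 586. The tracheal count of 6 became 14 with array weights, 12 with the block and 3 to 9 with 1 array left out. The chitin count of 4 became 2 with no filter and 2 to 4 with 1 array left out. These 2 list counts under other settings were added after seeing the data. Of the disc calls 49.4% were higher in G2, 55.5% after median subtraction and 42.5% after cyclic loess. In S2 these shares were 63.5%, 73.4% and 48.0%.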

Other observations

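Some tracheal list genes have further probe sets that passed the filter. pyd, a junction scaffold gene, differed by 0.35 ± 0.14 in disc G2 on its brightest probe set (adjusted p = 0.133), and rose by 0.72 ± 0.15 on the dimmest of 3 (5.44 to 6.16, adjusted p = 0.0081). grh differed by 0.64 ± 0.19 on one probe set and 0.25 ± 0.21 on the other, and sty, an inhibitor of growth factor signalling, by 0.12 ± 0.15 and 0.40 ± 0.16, with none of these passing without the replicate block. On its probe sets pio, a luminal protein of the tracheal tube, differed by 0.49 ± 0.22 and 0.47 ± 0.23 (adjusted p = 0.187 and 0.227 without the block).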
